A study of Mus musculus with 70 samples.

Results

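Lungs of 12 wildtype mice were compared 3 months after inhalation of crystalline silica (6 mice) or air (6 mice), out of 70 lung libraries in the whole series. The 12 libraries were chosen by their labels for genotype, exposure and time, and every gene of the count table was considered. The series crossed Slc26a4 genotype with silica exposure and followed the lungs for 1 day, 3 months and 9 months, to ask what the Slc26a4 gene contributes to the lung's response to silica. All 12 mice were homozygous wildtype (Pds+/+) males from heterozygous 129S-Slc26a4tm1Erg/AjgJ breeders, about 3 months old when exposure began. The silica group breathed Min-U-Sil5 silica at 15 mg/m3 in a whole-body chamber for 6 hours a day on 4 days, and the control group breathed air. RNA came from a piece of lung tissue, each library from 1 mouse. The knockout mice named below (Pds-/-) came from the same breeding and had the same exposures. Whether littermates or cage mates fell into the same group is not given in the sources used here.

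Inhaled crystalline silica is taken up mainly by alveolar macrophages, in which the particles damage lysosomes and set off inflammasome and NF-kappa-B signalling. The particles clear slowly, so chemokines, neutrophils and monocyte-derived macrophages can persist long after exposure ends, and silicosis can follow with macrophage aggregates, surfactant accumulation and fibrosis. Slc26a4 encodes pendrin, an anion exchanger of the apical membrane of airway epithelium that is induced by inflammatory cytokines.

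Library totals ranged from 1919562 to 5596316 counts in the air group and from 1142056 to 3468575 in the silica group, so the silica libraries were on the whole shallower. Values below are normalised CPM, read counts scaled to a common library size with TMM (trimmed mean of M-values) factors. Any 2 libraries of a group differed by more than sampling noise, with a chi-square per degree of freedom from 1.65 to 3.99. Lung markers were abundant in every library, with summed alveolar type 2 markers at 13400 to 14300 CPM in air and 13500 to 15600 CPM in silica lungs. The model took its spread from the 24 libraries of 3 months, knockouts included. Without knockout silica replicate 3, 575 genes were called instead of 374, including all of the 374, and the cause was not tested. A library of the 9 month comparison stood apart from its group: the wildtype lung labelled air, replicate 5, was the highest of its 5 air lungs for 239 of the 283 genes that rose at 3 months. The same share over all tested genes was not counted. Counts of calls at 9 months are therefore given with and without that lung.

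Silica changed the wildtype lung in one main direction 3 months after exposure. Of 12647 tested genes, 374 passed edgeR's quasi-likelihood test at a Benjamini-Hochberg adjusted p under 0.05 (2.96% of the genes tested). Of these, 283 rose (2.24%) and 91 fell (0.72%). The increases were the larger changes: 88 genes rose at least 2-fold, 25 at least 4-fold and 9 at least 8-fold, whereas 14 fell at least 2-fold and 0 fell 4-fold. The median log2 fold change was 0.74 among genes that rose and -0.39 among those that fell, against -0.007 over all tested genes. Among all tested genes, every silica mouse lay above every air mouse for 225 (1.78%) and below for 113 (0.893%). Of the called genes, 179 of the 283 increases and 48 of the 91 decreases separated the groups in that way. In bulk tissue, more cells of a type and more RNA per cell cannot be told apart.

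**Figure D1:**
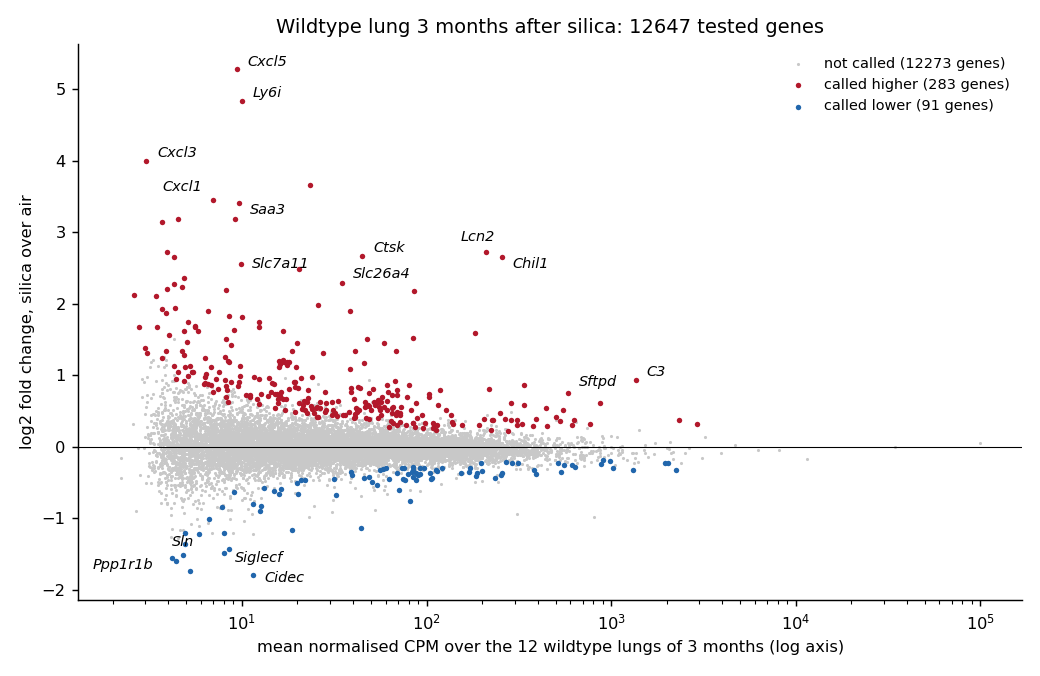
Each point is 1 of 12647 tested genes, with its mean normalised CPM over the 12 lungs on the log x axis and its log2 fold change, silica over air, on the y axis. Red points are the 283 called higher and blue points the 91 called lower; the largest increases (Cxcl5 at 5.28, Ly6i at 4.84) lie among genes of low level, and no called decrease goes below -1.79.

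The gene that the series is built around rose in silica lungs. Slc26a4 (chromosome 12, positions 31519814 to 31560055, GRCm38) ran from 9.08 to 15 CPM (median 11.5) in air mice and from 43 to 73.8 CPM (median 55.1) in silica mice. No mouse of either group reached the range of the other, and the log2 fold change was 2.29 ± 0.22 (SE; 4.88-fold, adjusted p = 1.39e-08). Knockout lungs of the same time also held reads assigned to Slc26a4, from 1.06 to 3.08 CPM in air and from 3.38 to 36.4 CPM in silica. Which exons the knockout allele lacks was not used here, so those reads are no check of the genotype. Among the other genes of anion transport and hydrogen peroxide production that were tested, Slc12a2, a sodium, potassium and chloride cotransporter that loads epithelial cells with chloride, rose by 0.24 ± 0.06 (adjusted p = 0.0377), a call lost in 8 of 33 alternatives. The list had 6 tested members, of which 2 rose and 0 fell, with a median log2 fold change of 0.12. The peroxide-producing oxidases Duox1 and Duox2 and the peroxidase Lpo were too low to test.

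Of the chemokines that attract neutrophils 3 rose, and Cxcl5 had the largest fold change of the comparison. Cxcl1, Cxcl3 and Cxcl5, all ligands of the neutrophil receptor Cxcr2, lie in one cluster on chromosome 5 (Cxcl5 from 90759298, Cxcl3 from 90786101 and Cxcl1 from 90891245, GRCm38). Cxcl1 ran from 0.649 to 1.67 CPM (median 1.01) in air and from 9.04 to 16.8 CPM (median 13.2) in silica lungs, a log2 fold change of 3.45 ± 0.28 (adjusted p = 4.32e-10). Cxcl5 ran from 0 to 0.973 CPM (median 0.42) in air and from 2.69 to 32.3 CPM (median 20.4) in silica lungs, a change of 5.28 ± 0.61 (adjusted p = 4.30e-07). Cxcl3 ran from 0 to 0.949 CPM (median 0.371) in air and from 2.47 to 12.8 CPM (median 4.74) in silica lungs, a change of 4.00 ± 0.67 (adjusted p = 2.55e-04). The groups did not overlap for any of the 3. Air libraries held only 2 to 7 reads of Cxcl1, 0 to 3 of Cxcl5 and 0 to 2 of Cxcl3, so the sizes of these folds rest on few reads. In the model over all 70 libraries Cxcl3 was no longer called (adjusted p = 0.0751). The other 3 tested members of the list were not called, among them the lung epithelial chemokine Cxcl15 (0.15, adjusted p = 0.32) and the receptor Cxcr2 (0.36, adjusted p = 0.665).

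The stretches before the start sites of Cxcl3 and Cxcl1 are printed here because these neighbours rose together, and those of Chil1, Mmp12 and Nfkbie because they rose and, like both chemokines, hold a match to the NF-kappa-B consensus, which was searched on both strands. Capitals mark the matches, and each sequence is the 250 bases before the start in RefSeq's GRCm38.p6 annotation, plus strand (chr5:90785851-90786100, chr5:90890995-90891244, chr1:134181906-134182155, chr9:7344147-7344396 and chr17:45555450-45555699 in the order shown).
Cxcl3: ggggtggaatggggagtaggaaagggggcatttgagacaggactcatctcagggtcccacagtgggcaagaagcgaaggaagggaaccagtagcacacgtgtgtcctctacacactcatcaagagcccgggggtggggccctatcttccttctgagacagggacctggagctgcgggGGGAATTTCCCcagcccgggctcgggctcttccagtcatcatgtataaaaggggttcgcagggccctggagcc
Cxcl1: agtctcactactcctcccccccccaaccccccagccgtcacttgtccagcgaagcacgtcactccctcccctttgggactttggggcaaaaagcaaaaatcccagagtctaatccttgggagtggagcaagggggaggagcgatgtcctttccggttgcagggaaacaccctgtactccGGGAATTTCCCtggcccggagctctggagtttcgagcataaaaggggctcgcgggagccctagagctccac
Chil1: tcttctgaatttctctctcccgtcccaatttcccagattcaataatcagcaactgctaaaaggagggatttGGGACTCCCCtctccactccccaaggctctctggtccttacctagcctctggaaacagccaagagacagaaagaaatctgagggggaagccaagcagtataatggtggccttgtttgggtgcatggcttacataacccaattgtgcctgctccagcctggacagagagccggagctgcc
Mmp12: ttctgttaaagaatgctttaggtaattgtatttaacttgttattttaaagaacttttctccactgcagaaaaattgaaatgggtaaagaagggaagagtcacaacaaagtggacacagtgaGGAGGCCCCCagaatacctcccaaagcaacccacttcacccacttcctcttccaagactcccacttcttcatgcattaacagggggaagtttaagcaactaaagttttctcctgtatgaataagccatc
Nfkbie: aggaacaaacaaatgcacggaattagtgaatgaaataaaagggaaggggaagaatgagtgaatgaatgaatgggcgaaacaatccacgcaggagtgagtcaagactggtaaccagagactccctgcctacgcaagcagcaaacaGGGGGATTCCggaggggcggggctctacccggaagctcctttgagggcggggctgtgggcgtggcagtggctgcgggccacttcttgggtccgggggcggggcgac
The match begins 73 bases before the start of Cxcl3 and 71 bases before that of Cxcl1, and the capital letters are the same in both. In Chil1 it begins 179, in Mmp12 129 and in Nfkbie 106 bases before the start. Among the 15 largest increases, 12 had an entry in the promoter table and 4 of them held a match in the 300 bases from 250 before to 50 after the start, the 4 being Cxcl3, Cxcl1, Chil1 and Mmp12. A match was held by 8.46% of all 32851 promoters listed, or 9.55% of their 27025 genes. By gene, 42 of 228 called higher (18.4%), 14 of 69 called lower (20.3%) and 12.5% of all tested genes with an entry held a match. The AP-1 motif (TGANTCA, both strands) was in 13.6% of the increases, 10.1% of the decreases and 6.34% of all tested genes, against 8.97% of all genes listed (7.81% of all promoters). The interferon response motif (GAAANNGAA, both strands) was in 14.5%, 4.35% and 8.87%, against 9.76% of all genes listed (8.56% of all promoters), and the antioxidant motif (TGACNNNGC, both strands) in 16.2%, 13% and 16.9%, against 14% of all genes listed (12.4% of all promoters). The 12647 tested genes had 12640 distinct gene identifiers, since some share one, and only 10032 of these (79.4%) had an entry, too few for a comparison between sets, so these shares are a description.

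Some CC chemokines and their receptors rose beside them. Of 13 tested CC chemokines and their receptors, 8 rose and 0 fell, with a median log2 fold change of 0.87. The receptors Ccr1, Ccr2 and Cx3cr1 were among the 8. Ccl2, Ccl4, Ccl7, Ccl8, Ccl12, Ccl20 and Ccl24 were too low to test, so nothing is said of them. Ccl6, a chemokine of macrophages, ran from 84.3 to 103 CPM (median 91.1) in air and from 225 to 323 CPM (median 282) in silica lungs, 3.01-fold higher (1.59 ± 0.10, adjusted p = 1.04e-12). The Ccr4 ligands Ccl22 and Ccl17, made by activated dendritic cells and macrophages, rose 9.11-fold and 9.03-fold. Ccl22 ran from 0.952 to 3.2 CPM (median 1.78) in air and from 11.6 to 20.6 CPM (median 17.5) in silica lungs (3.19 ± 0.30, adjusted p = 1.22e-08). Ccl17 ran from 0.366 to 2.14 CPM (median 0.656) in air and from 4.52 to 12.5 CPM (median 7.41) in silica lungs (3.18 ± 0.42, adjusted p = 6.67e-06). For all 3 of these genes the 2 groups of mice were fully apart. Ccl3, an inflammatory macrophage chemokine, rose by 2.72 ± 0.37 (adjusted p = 8.80e-06) and Ccl9 by 1.12 ± 0.17 (adjusted p = 4.31e-05). Of the receptors, Ccr2, which brings monocytes out of the blood, ran from 25.3 to 59.3 CPM in air and from 59.6 to 96.3 CPM in silica lungs (0.87 ± 0.15, adjusted p = 5.42e-04), and Ccr1 rose by 0.72 ± 0.18 (adjusted p = 0.0154). Cx3cr1, the fractalkine receptor of monocytes, was called at 0.76 ± 0.22 (adjusted p = 0.0484) but lost that call in 19 of 33 alternatives. Ccl5, a T cell product, was not called (0.13, adjusted p = 0.935). Of 7 tested genes that attract lymphocytes 1 rose, Cxcl16, a membrane-bound chemokine that is also a scavenger receptor (0.55 ± 0.07, adjusted p = 3.73e-06).

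Secreted defence proteins formed a further group of large increases. Lcn2, the iron-siderophore binding lipocalin (chromosome 2, positions 32384637 to 32387739), ran from 42.7 to 60.6 CPM (median 56.4) in air and from 317 to 444 CPM (median 359) in silica lungs, 6.59-fold higher (2.72 ± 0.14, adjusted p = 5.65e-15). Chil1, a chitinase-like protein, ran from 53.8 to 85.2 CPM (median 69.5) in air and from 404 to 543 CPM (median 426) in silica lungs (2.65 ± 0.13, adjusted p = 5.55e-15). These 2 had the smallest p-values of the comparison, and the lowest silica mouse stood far above the highest air mouse in both. Saa3, an acute phase protein, was more uneven, from 0 to 2.93 CPM (median 1.51) in air and from 6.02 to 44.1 CPM (median 14.2) in silica lungs (3.41 ± 0.43, adjusted p = 2.64e-06). Pigr, the receptor that carries IgA across epithelium, rose 4.52-fold (2.18 ± 0.23, adjusted p = 7.22e-08), and Il1rn, the interleukin 1 receptor antagonist, 3.36-fold (1.75 ± 0.17, adjusted p = 1.39e-08). Cp, the copper oxidase ceruloplasmin, rose by 0.29 ± 0.08 (adjusted p = 0.0408). In all, 5 of 8 tested acute phase genes rose and 0 fell, with a median of 1.04. Steap4, a metalloreductase of inflamed tissue, ran from 12.9 to 28.8 CPM (median 13.8) in air and from 47.5 to 75.4 CPM (median 60.6) in silica lungs (1.90 ± 0.15, adjusted p = 2.26e-10). Wfdc21, a small secreted protein of the whey acidic protein family, rose 6.26-fold (adjusted p = 4.30e-07).

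Complement genes rose in part: 4 of 14 tested members rose and 0 fell, with a median of 0.31. C3, the protein on which all complement pathways meet, ran from 879 to 1090 CPM (median 904) in air and from 1560 to 2190 CPM (median 1740) in silica lungs, 1.92-fold higher (0.94 ± 0.09, adjusted p = 1.22e-08). Cfb, factor B of the alternative pathway, rose 2.73-fold (1.45 ± 0.16, adjusted p = 1.92e-07), with 65.5 to 145 CPM in silica against 27.2 to 40.6 CPM in air lungs. Both genes had fully separate groups. C1qa, a subunit of the recognition molecule C1q made by macrophages, rose by 0.90 ± 0.18 (adjusted p = 0.00258). C3ar1, the receptor of the C3a fragment, was called at 0.89 ± 0.23 (adjusted p = 0.0234) and lost the call in 5 of 33 alternatives: without air replicate 2 or 5, without silica replicate 1 or 2, and in the fit of all 70 libraries, with adjusted p up to 0.217.

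Of 14 tested NF-kappa-B pathway genes 10 rose and 0 fell, and all 14 had a positive log2 fold change, with a median of 0.50. They included feedback inhibitors and genes of the non-canonical arm. Nfkbie, an inhibitor of the I-kappa-B family, ran from 8.1 to 16.1 CPM (median 9.4) in air and from 21 to 26 CPM (median 24.6) in silica lungs (1.18 ± 0.14, adjusted p = 1.09e-06). Tnfaip3, the A20 deubiquitinase, ran from 31.9 to 43.5 CPM (median 37.4) in air and from 42.9 to 89.9 CPM (median 67.5) in silica lungs, where the lowest silica mouse fell just inside the air range (0.81 ± 0.13, adjusted p = 8.34e-05). Nfkb2, the precursor of p52, ran from 27.8 to 52.6 CPM (median 38.6) in air and from 51.9 to 76 CPM (median 61.9) in silica lungs (0.63 ± 0.12, adjusted p = 0.00194). Nfkbia rose by 0.44 ± 0.10 (adjusted p = 0.00857), Nfkbiz by 0.48 ± 0.10 (adjusted p = 0.00333), Birc3 by 0.51 ± 0.11 (adjusted p = 0.00387) and the adhesion molecules Icam1 by 0.29 ± 0.06 (adjusted p = 0.00254) and Vcam1 by 0.45 ± 0.10 (adjusted p = 0.00555). Relb was called at 0.67 (adjusted p = 0.047) and lost the call in 14 of 33 alternatives. The canonical subunits Nfkb1 (0.15, adjusted p = 0.227) and Rel (0.37, adjusted p = 0.239) were not called. Leaving out a library or changing the method gave 7 to 10 called members. Outside the list, chosen after their values were seen, the A20 partners Tnip1 (0.49 ± 0.10, adjusted p = 0.00188) and Tnip3 (1.93 ± 0.34, adjusted p = 4.68e-04) and the adaptor Traf3 (0.55 ± 0.10, adjusted p = 6.05e-04) also rose.

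Of the interleukin 1 family and inflammasome genes, 3 of 14 tested rose and 1 fell. Il1b, the main product of the inflammasome, ran from 2.59 to 14.4 CPM (median 9.63) in air and from 14.3 to 34.2 CPM (median 21) in silica lungs, 2.23-fold higher (1.16 ± 0.26, adjusted p = 0.0074), with the highest air mouse just inside the silica range. Il1rl1, the interleukin 33 receptor, rose 2.67-fold (1.42 ± 0.20, adjusted p = 2.37e-05), and the antagonist Il1rn is given above. Il18, the other inflammasome cytokine, ran from 13.8 to 19.1 CPM in air and from 7.53 to 13 CPM in silica lungs (-0.58 ± 0.16, adjusted p = 0.0443), a call lost in 16 of 33 alternatives. The sensor Nlrp3 was not called (0.61 ± 0.23, adjusted p = 0.184), nor was Tnf (0.68 ± 0.33, adjusted p = 0.367), a cytokine named here after its value was seen.

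**Figure D2:**
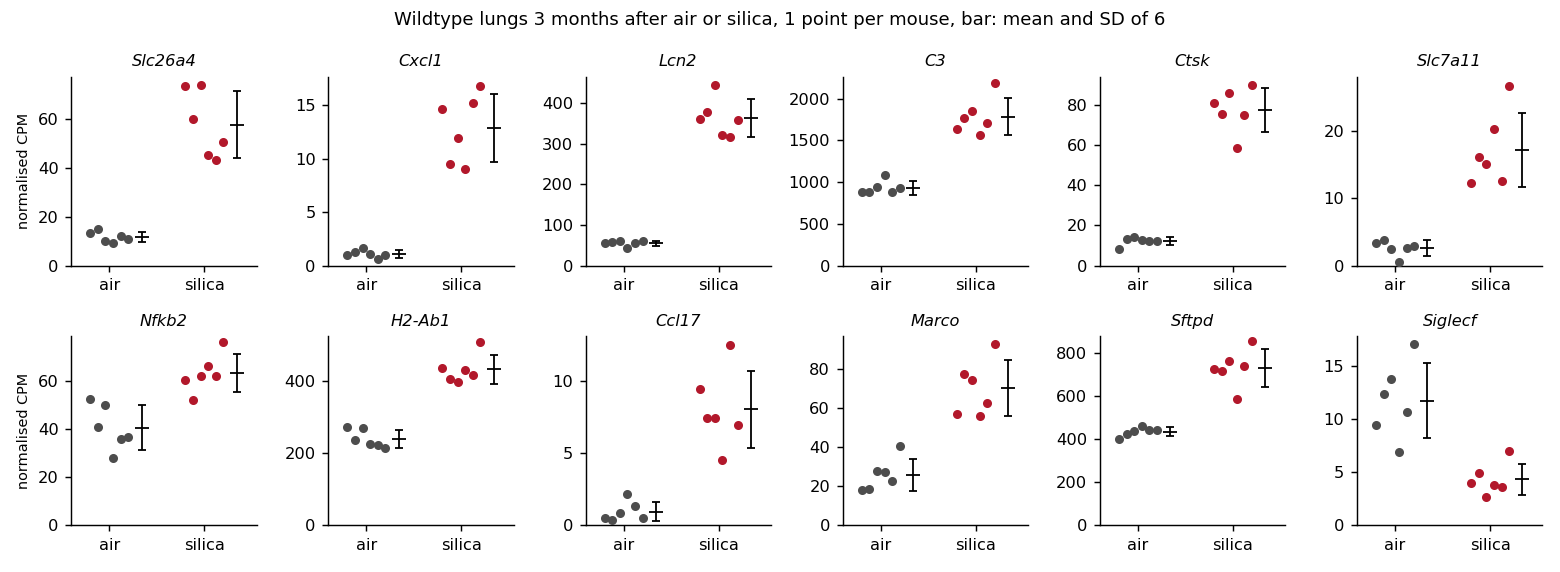
Normalised CPM on the y axis of each panel for 12 genes in the 6 air lungs (grey) and 6 silica lungs (red), 1 point per mouse, with the mean and SD of 6 beside the points. Slc26a4, Cxcl1, Lcn2, C3, Ctsk and Slc7a11 in the upper row separate the groups fully; Siglecf, the lower right panel, is lower in silica lungs with one silica mouse at 6.96 CPM just inside the air range.

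Macrophage genes changed in a selective way. Of 18 tested phagocytic and pattern recognition receptors, 8 rose and 0 fell, with a median of 0.68. Marco, the scavenger receptor that binds silica particles, ran from 18 to 40.5 CPM (median 24.8) in air and from 55.7 to 92.8 CPM (median 68.5) in silica lungs (1.51 ± 0.16, adjusted p = 6.37e-08). Clec4n, a receptor for fungal mannans, rose 2.74-fold (1.45 ± 0.19, adjusted p = 4.13e-06), the inhibitory Fc receptor Fcgr2b 2.3-fold (adjusted p = 2.96e-05) and the bacterial lipoprotein receptor Tlr2 1.7-fold (adjusted p = 6.18e-05). Each of these 4 had separate groups. Msr1, a further scavenger receptor, rose by 1.19 ± 0.30 (adjusted p = 0.0187), Clec4e by 1.28 ± 0.31 (adjusted p = 0.013), Cd14 by 0.89 ± 0.17 (adjusted p = 0.00126) and Clec7a by 0.55 ± 0.12 (adjusted p = 0.0074). In the fit of all 70 libraries 4 members were called. The efferocytosis receptor Mertk was not called (-0.12, adjusted p = 0.673).

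Some genes best known from osteoclasts and from lipid-laden macrophages rose. Ctsk, the collagen-degrading cathepsin K (chromosome 3, positions 95499210 to 95509387), ran from 8.06 to 14.2 CPM (median 12.6) in air and from 58.7 to 89.9 CPM (median 78.4) in silica lungs, 6.34-fold higher (2.67 ± 0.15, adjusted p = 3.45e-14). Spp1, osteopontin, ran from 27.2 to 61.4 CPM (median 44.7) in air and from 90.4 to 175 CPM (median 122) in silica lungs (1.52 ± 0.17, adjusted p = 3.22e-07). Tnfrsf11a, the receptor RANK, rose by 0.95 ± 0.14 (adjusted p = 3.51e-05), and Acp5, tartrate-resistant acid phosphatase, by 0.88 ± 0.18 (adjusted p = 0.00304). In none of these 4 did the groups overlap. With Atp6v0d2, a subunit of the lysosomal proton pump (0.69 ± 0.15, adjusted p = 0.00483), 5 of 10 tested osteoclast-type genes rose and 0 fell. Acp5 and Atp6v0d2 were not called in the fit of all 70 libraries (adjusted p = 0.323 and 0.306). Among 14 tested genes of lipid-laden and scar-type macrophages 5 rose and 0 fell. Mmp12, the macrophage elastase, ran from 2.56 to 4.76 CPM (median 3.61) in air and from 24.2 to 63.8 CPM (median 44.4) in silica lungs, 12.7-fold higher (3.66 ± 0.47, adjusted p = 3.73e-06). Gpnmb, a lysosomal stress glycoprotein, rose 2.54-fold (1.34 ± 0.22, adjusted p = 1.72e-04), Fabp5, a fatty acid carrier, 1.79-fold (0.84 ± 0.14, adjusted p = 1.44e-04) and the lectin Lgals3 by 0.61 ± 0.16 (adjusted p = 0.0322). Not called were Trem2 (0.70 ± 0.39, adjusted p = 0.462), Apoe (-0.03, adjusted p = 0.936) and the lipid droplet coat Plin2 (0.12, adjusted p = 0.849). Of 21 tested lysosome genes 5 rose and 0 fell, with a median of 0.22: Ctsk, Ctsz (0.70 ± 0.11, adjusted p = 9.58e-05), Atp6v0d2, Cd68 (0.82 ± 0.18, adjusted p = 0.0071) and Ctsd (0.52 ± 0.15, adjusted p = 0.0491). Across alternatives the lysosome count went from 1 to 8.

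Markers of resident alveolar macrophages split in both directions. Of 11 tested, 3 rose (Marco, Plet1 and Itgax), 3 fell (Siglecf, Ear1 and Fabp1) and the median was -0.01. Siglecf, the sialic acid lectin that defines resident alveolar macrophages and eosinophils, ran from 6.94 to 17.1 CPM (median 11.6) in air and from 2.67 to 6.96 CPM (median 3.86) in silica lungs (-1.48 ± 0.24, adjusted p = 1.49e-04). Ear1, a ribonuclease of the same cells, ran from 9.01 to 14.9 CPM in air and from 2.37 to 8.7 CPM in silica lungs (-1.21 ± 0.25, adjusted p = 0.00351). Fabp1, a fatty acid carrier, was lower at -1.22 ± 0.32 (adjusted p = 0.0284), a call lost in 7 of 33 alternatives. Plet1 rose by 0.76 ± 0.12 (adjusted p = 8.85e-05), and Itgax, the integrin CD11c, by 0.73 ± 0.16 (adjusted p = 0.0071). Other genes of the list were not called: Mrc1 (0.10, adjusted p = 0.833), Car4 (-0.01, adjusted p = 0.997), Krt79 (-0.17, adjusted p = 0.772) and the lineage regulator Pparg (-0.17, adjusted p = 0.743). Car4 is also on the endothelium list, so its level in whole lung does not stand for macrophages alone. Of 9 tested genes of interstitial macrophages and monocytes 3 rose (Ccr2, C1qa and Cx3cr1), and their summed level went from 213 to 328 CPM in air to 336 to 447 CPM in silica lungs. Eosinophil and mast cell markers, another source of Siglecf and Ear1, were all too low to test, with a sum of 5.19 to 11.2 CPM in air and 5.13 to 10.5 CPM in silica lungs.

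Class II antigen presentation rose almost throughout. Of 11 tested genes 8 rose and all 11 had a positive log2 fold change, with a median of 0.61. H2-Ab1, the class II beta chain (chromosome 17, positions 34263227 to 34269418), ran from 213 to 271 CPM (median 230) in air and from 398 to 509 CPM (median 424) in silica lungs, 1.81-fold higher (0.86 ± 0.07, adjusted p = 1.92e-09). H2-Eb1 rose 1.76-fold (0.81 ± 0.09, adjusted p = 2.09e-07), H2-Aa 1.51-fold (0.59 ± 0.06, adjusted p = 5.03e-08) and the invariant chain Cd74 1.52-fold (0.61 ± 0.07, adjusted p = 3.49e-07), all with separate groups. Ciita, the master regulator of class II transcription, rose by 0.73 ± 0.13 (adjusted p = 3.47e-04), and the peptide exchange chains H2-DMa by 0.51 ± 0.11 (adjusted p = 0.00577), H2-DMb1 by 0.54 ± 0.13 (adjusted p = 0.0104) and H2-DMb2 by 0.74 ± 0.21 (adjusted p = 0.043). Class I moved less: 3 of 12 tested genes rose, H2-K1 (0.54 ± 0.08, adjusted p = 1.31e-05), B2m (0.36 ± 0.08, adjusted p = 0.00646) and Psmb8 (0.44 ± 0.12, adjusted p = 0.0408), and the last lost its call in 9 of 33 alternatives. Of 17 interferon-stimulated genes only Iigp1, an interferon gamma-induced GTPase, was called (0.90 ± 0.17, adjusted p = 0.00139), while the list's median was 0.39.

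Markers of dendritic cells were the marker list with the highest median, 1.12, and 9 of its 15 tested genes rose and 0 fell. Itgae, the CD103 integrin of type 1 conventional dendritic cells, ran from 7.62 to 11.9 CPM (median 10.4) in air and from 18.8 to 28.4 CPM (median 23.5) in silica lungs (1.21 ± 0.17, adjusted p = 2.44e-05). Other type 1 genes rose with it, the chemokine receptor Xcr1 by 1.62 ± 0.32 (adjusted p = 0.00178) and the dead-cell receptor Clec9a by 1.12 ± 0.23 (adjusted p = 0.00371). Some genes of mature, migrating cells rose too. Fscn1, an actin bundler, ran from 5.22 to 10.7 CPM in air and from 21.6 to 32.3 CPM in silica lungs (1.62 ± 0.36, adjusted p = 0.00633). The costimulator Cd86 rose by 1.20 ± 0.21 (adjusted p = 3.15e-04) and Cd83 by 0.96 ± 0.18 (adjusted p = 0.00137). The growth factor receptor Flt3 rose by 0.90 ± 0.21 (adjusted p = 0.0114). The other 6 tested members, Ccr7, Cd40, Cd80, Zbtb46, Irf8 and Siglech, were not called. The summed level of the list went from 146 to 201 CPM in air to 255 to 293 CPM in silica lungs without overlap, Ccl17 and Ccl22 included. Every alternative called 9 to 11 of these genes. Chosen after their values were seen, the lectins Ly75 (1.34 ± 0.13, adjusted p = 2.46e-08), Mgl2 (1.31 ± 0.14, adjusted p = 7.22e-08) and Cd207, langerin (1.94 ± 0.45, adjusted p = 0.00962), also rose.

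Neutrophil markers gave no calls beside the neutrophil chemokines. None of 6 tested markers was called, though all 6 had a positive log2 fold change, with a median of 0.28. The summed level of the list, 72.3 to 104 CPM in silica lungs, lay within the 26.9 to 122 CPM of air lungs. S100a8 had a log2 fold change of 0.67 ± 0.36 (adjusted p = 0.437), S100a9 of 0.24 ± 0.38 (adjusted p = 0.879), Csf3r of 0.24 ± 0.25 (adjusted p = 0.784) and Retnlg of 0.16 ± 0.41 (adjusted p = 0.94), and these standard errors leave room for sizeable changes. The defining marker Ly6g and the granule genes Camp, Ngp, Elane and Mpo were too low to test. Outside the list, Cd177, a surface protein of neutrophils, ran from 3.33 to 9.01 CPM (median 6.49) in air and from 15.2 to 54.8 CPM (median 36.1) in silica lungs (2.48 ± 0.28, adjusted p = 3.74e-07). Cxcr1, an interleukin 8 receptor picked after its values were seen, ran from 0 to 3.79 CPM in air and from 3.76 to 10.4 CPM in silica lungs (2.28 ± 0.48, adjusted p = 0.00371).

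Lymphocyte genes gave few calls at this depth. Of 8 tested T and natural killer cell markers 1 rose, the interleukin 7 receptor Il7r (0.64 ± 0.14, adjusted p = 0.00457). Of 5 tested genes of regulatory T cells and costimulation 1 rose, the inhibitory receptor Ctla4, which ran from 0.476 to 2.37 CPM (median 1.18) in air and from 4.34 to 8.96 CPM (median 4.99) in silica lungs (2.11 ± 0.37, adjusted p = 4.71e-04). Foxp3, the defining factor of regulatory T cells, was too low to test, at 0 to 1.9 CPM in air and 1.74 to 4.74 CPM in silica lungs, and these ranges overlap. None of 10 tested B cell and plasma cell genes was called. Jchain, the joining chain of secreted antibodies, spread most, from 17.1 to 50.2 CPM in air and from 16.2 to 165 CPM in silica lungs (0.93 ± 0.47, adjusted p = 0.392).

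Few epithelial genes were called, while each of the alveolar lists leaned in one direction by small amounts. Of 10 tested type 2 cell genes 9 had a positive log2 fold change, with a median of 0.16. Of 10 tested type 1 cell genes 2 had a positive one, with a median of -0.12. The type 1 list summed to 6320 to 6870 CPM in air and 5740 to 6360 CPM in silica lungs. The soluble surfactant collectins rose: Sftpd ran from 402 to 459 CPM (median 439) in air and from 586 to 854 CPM (median 731) in silica lungs, 1.69-fold higher (0.75 ± 0.09, adjusted p = 1.56e-06), and Sftpa1 rose 1.3-fold (0.37 ± 0.08, adjusted p = 0.00642). Both bind particles and microbes in the alveolar fluid. Lamp3, a membrane protein of the surfactant-storing lamellar bodies, rose by 0.37 ± 0.07 (adjusted p = 0.0022). The hydrophobic surfactant protein genes did not rise, since Sftpc was level (0.02 ± 0.05, adjusted p = 0.932) and Sftpb was called lower at -0.23 ± 0.07 (adjusted p = 0.0498), a call lost in 21 of 33 alternatives. In type 1 cells Pdpn, podoplanin, rose by 0.33 ± 0.08 (adjusted p = 0.0234), Cav1, caveolin, was lower at -0.20 ± 0.06 (adjusted p = 0.0442, lost in 16 of 33 alternatives) and Ager was not called (-0.08, adjusted p = 0.783). None of 10 tested genes of the stressed, transitional epithelium seen in repair was called, Krt8 among them (-0.09 ± 0.09, adjusted p = 0.739). Club cell and ciliated cell lists gave 0 calls of 7 and 10 tested genes, with Scgb1a1 at -0.17 (adjusted p = 0.614) and Foxj1 at 0.17 (adjusted p = 0.724). Named after their values were seen, the epithelial transcription factor Ehf (0.80 ± 0.09, adjusted p = 3.55e-07), the membrane mucins Muc4 (0.75 ± 0.13, adjusted p = 4.96e-04) and Muc1 (0.39 ± 0.07, adjusted p = 5.66e-04) and the growth factor receptor Fgfr2 (0.37 ± 0.08, adjusted p = 0.00409) rose, with separate groups in each. Muc4 and Muc1 were not called in the fit of all 70 libraries (adjusted p = 0.133 and 0.159).

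Oxidant genes moved in parts. Slc7a11, the cystine importer that feeds glutathione synthesis, ran from 0.534 to 3.84 CPM (median 2.73) in air and from 12.2 to 26.7 CPM (median 15.6) in silica lungs, 5.87-fold higher (2.55 ± 0.30, adjusted p = 5.62e-07). Most other genes of the NRF2 list did not move with it. Of 16 tested 3 rose, the others being mitochondrial superoxide dismutase Sod2 (0.33 ± 0.07, adjusted p = 0.00494) and thioredoxin reductase Txnrd1 (0.34 ± 0.08, adjusted p = 0.00626), and the list's median was 0.07. The standard NRF2 targets Nqo1 (-0.12, adjusted p = 0.92), Gclm (-0.01, adjusted p = 0.998) and Hmox1 (0.39 ± 0.16, adjusted p = 0.249) were not called. Of the NADPH oxidase genes, 4 were picked after their values were seen and because they rose, with no list behind them. Noxo1, the organiser of the epithelial oxidase, ran from 3.81 to 7.94 CPM (median 5.84) in air and from 12.8 to 26.1 CPM (median 18.6) in silica lungs (1.67 ± 0.20, adjusted p = 1.24e-06). Its activator Noxa1 rose 3.2-fold (1.68 ± 0.33, adjusted p = 0.00173), the shared subunit Cyba by 0.49 ± 0.11 (adjusted p = 0.00649) and the phagocyte catalytic subunit Cybb by 0.58 ± 0.16 (adjusted p = 0.0364, lost in 7 of 33 alternatives). The pantetheinases Vnn1 and Vnn3, also picked afterwards, rose 3.95-fold (adjusted p = 1.21e-05) and 3.53-fold (adjusted p = 8.14e-05). Slc39a8, a zinc and manganese importer, rose by 0.47 ± 0.11 (adjusted p = 0.013), from 166 to 232 CPM in air to 278 to 302 CPM in silica lungs.

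Matrix genes were mostly level. Of 20 tested genes of extracellular matrix and fibrosis 2 rose and 0 fell, with a median of 0.16. Col3a1, the type III collagen chain, ran from 346 to 502 CPM (median 435) in air and from 527 to 604 CPM (median 580) in silica lungs, 1.34-fold higher (0.42 ± 0.09, adjusted p = 0.00614), and in the fit of all 70 libraries it was not called (adjusted p = 0.33). Timp1, an inhibitor of metalloproteinases, ran from 0 to 3.33 CPM (median 1.43) in air and from 2.26 to 15.7 CPM (median 8.03) in silica lungs (2.36 ± 0.39, adjusted p = 1.58e-04). Col1a1 (0.18 ± 0.12, adjusted p = 0.6), Fn1 (-0.19 ± 0.12, adjusted p = 0.546), Postn (-0.01, adjusted p = 0.995) and Tnc (0.47 ± 0.22, adjusted p = 0.339) were not called.

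Of 11 tested cell division genes 4 rose, and all 11 had a positive log2 fold change, with a median of 0.64, and 6 further members were too low to test. Mki67, the proliferation antigen Ki-67, ran from 24 to 36.7 CPM (median 26.6) in air and from 43.9 to 71.3 CPM (median 66.8) in silica lungs, 2.25-fold higher (1.17 ± 0.16, adjusted p = 6.78e-06). Top2a, topoisomerase II alpha, rose 2.17-fold (1.12 ± 0.20, adjusted p = 7.15e-04) and the spindle factor Tpx2 1.99-fold (0.99 ± 0.22, adjusted p = 0.00628). The groups were separate for Mki67 and Top2a and overlapped for Tpx2, which was not called in the fit of all 70 libraries (adjusted p = 0.0831). Cenpf was called at 0.85 (adjusted p = 0.0419) and lost the call in 9 of 33 alternatives.

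**Figure D3:**
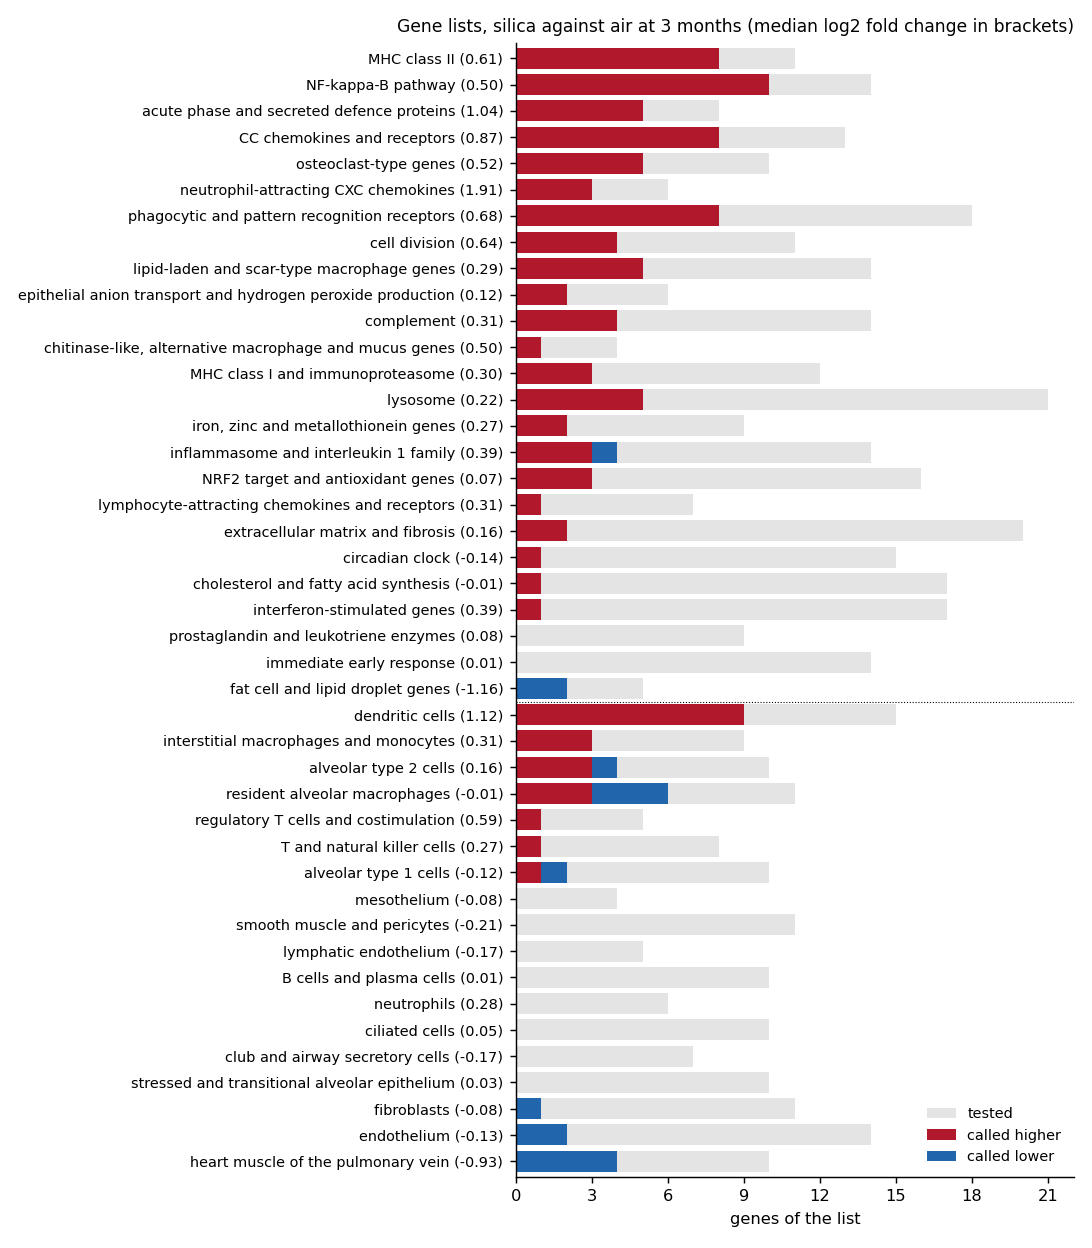
Number of tested genes (grey bar), genes called higher (red) and genes called lower (blue) for the gene lists with 4 or more tested members, with functions above the dotted line and cell type markers below it. The x axis counts genes and the bracket gives the list's median log2 fold change; MHC class II (8 of 11) and NF-kappa-B (10 of 14) have the highest called shares, and the fat cell, heart muscle, endothelium and fibroblast lists have lower calls only.

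The 10 largest decreases included genes of fat and heart muscle and resident macrophage markers, beside Cpne5, Ppp1r1b and Greb1, which are on no list. Cpne5, a calcium-dependent membrane-binding protein, ran from 4.29 to 9.49 CPM (median 5.78) in air and from 0.889 to 4.48 CPM (median 1.66) in silica lungs, where the highest silica mouse lay just inside the air range (-1.60 ± 0.34, adjusted p = 0.00429). It was also lower in knockout silica lungs (-1.26, adjusted p = 0.0215). Ppp1r1b, an inhibitor of protein phosphatase 1, was lower at -1.55 ± 0.37 (adjusted p = 0.0129) and Greb1, an estrogen-responsive gene, at -1.36 ± 0.34 (adjusted p = 0.019), with calls lost in 2 and 3 of 33 alternatives. Cidec, which fuses lipid droplets in fat cells, ran from 10.7 to 40.6 CPM (median 13.9) in air and from 1.79 to 7.5 CPM (median 4.73) in silica lungs, 3.45-fold lower (-1.79 ± 0.33, adjusted p = 7.97e-04). Plin4, a lipid droplet coat protein, ran from 15.7 to 67.3 CPM (median 18) in air and from 9.07 to 12.5 CPM (median 11.3) in silica lungs (-1.16 ± 0.29, adjusted p = 0.0203). Air replicate 4 was the highest of all 12 in both, and without it the log2 fold changes were -1.44 for Cidec (adjusted p = 0.00116) and -0.69 for Plin4 (adjusted p = 0.0258). Plin4 was not called without silica replicate 1 (adjusted p = 0.0514) or 2 (adjusted p = 0.0593). Defining fat cell genes stood high in the same air lung: Adipoq, adiponectin, was 23 CPM in air replicate 4 against 0 to 2.69 CPM in the other 11 lungs, and Plin1 was 10.1 CPM there. The fat cell list as a whole summed to 169 to 460 CPM in air and 137 to 184 CPM in silica lungs, with 2 of 5 tested members called lower, and its part in these decreases was not tested.

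Heart muscle genes, which the lung holds in the sleeve around the pulmonary veins, gave 4 lower calls of 10 tested, with all 10 negative and a median of -0.93. Mybphl, a myosin binding protein of atrial muscle, ran from 5.71 to 9.61 CPM (median 8.54) in air and from 0.395 to 3.76 CPM (median 2.6) in silica lungs, with no overlap (-1.74 ± 0.41, adjusted p = 0.0114). It lost the call in 2 of 33 alternatives, the fit of all 70 libraries (adjusted p = 0.0561) and that without silica replicate 1. Sln, sarcolipin (-1.51 ± 0.42, adjusted p = 0.0444), Myl4, an atrial myosin light chain (-1.14 ± 0.32, adjusted p = 0.043), and Actc1, cardiac actin (-0.76 ± 0.22, adjusted p = 0.0481), had overlapping groups and lost their calls in 18, 15 and 21 of 33 alternatives. Tnnc1, the troponin C of heart and slow muscle, is not on the list and fell by 1.43 on the log2 scale (SE 0.34, adjusted p = 0.0103). The most abundant heart gene, Myh6, ran from 219 to 717 CPM in air and from 116 to 272 CPM in silica lungs and was not called (-0.94 ± 0.36, adjusted p = 0.193). The summed list ran from 461 to 1410 CPM in air and from 272 to 560 CPM in silica lungs. The count of calls moved with the fit, from 0 with all 70 libraries to 9 with the 12 wildtype libraries alone, and was 1 without air replicate 4. How much vein each piece of lung held was not measured, and its part in the decreases was not tested.

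Few vascular and stromal genes fell, and by small amounts. Of 14 tested endothelial genes 2 fell and 0 rose, with a median of -0.13, and the list's sum was 8050 to 8710 CPM in air and 7530 to 7710 CPM in silica lungs, without overlap. Gpihbp1, the anchor of lipoprotein lipase on capillaries, had means of 102 CPM in air and 73.3 CPM in silica lungs (-0.46 ± 0.10, adjusted p = 0.0074), and Ptprb, the vascular endothelial phosphatase, was lower by 0.23 log2 units (SE 0.05, adjusted p = 0.00626). Neither was called with all 70 libraries (adjusted p = 0.103 and 0.32). Kdr, the main VEGF receptor, was not called (-0.10, adjusted p = 0.502). Tgfbr3, a co-receptor for TGF-beta, was lower at -0.44 ± 0.09 (adjusted p = 0.00196), Col12a1, a fibril-associated collagen, at -0.45 ± 0.09 (adjusted p = 0.00192), and the lipoprotein receptor Vldlr at -0.38 ± 0.07 (adjusted p = 6.86e-04). Of the fibroblast markers 1 of 11 tested fell, Inmt (-0.32 ± 0.08, adjusted p = 0.0246, lost in 7 of 33 alternatives), and 0 of 11 smooth muscle and pericyte genes were called at a median of -0.21.

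**Figure D4:**
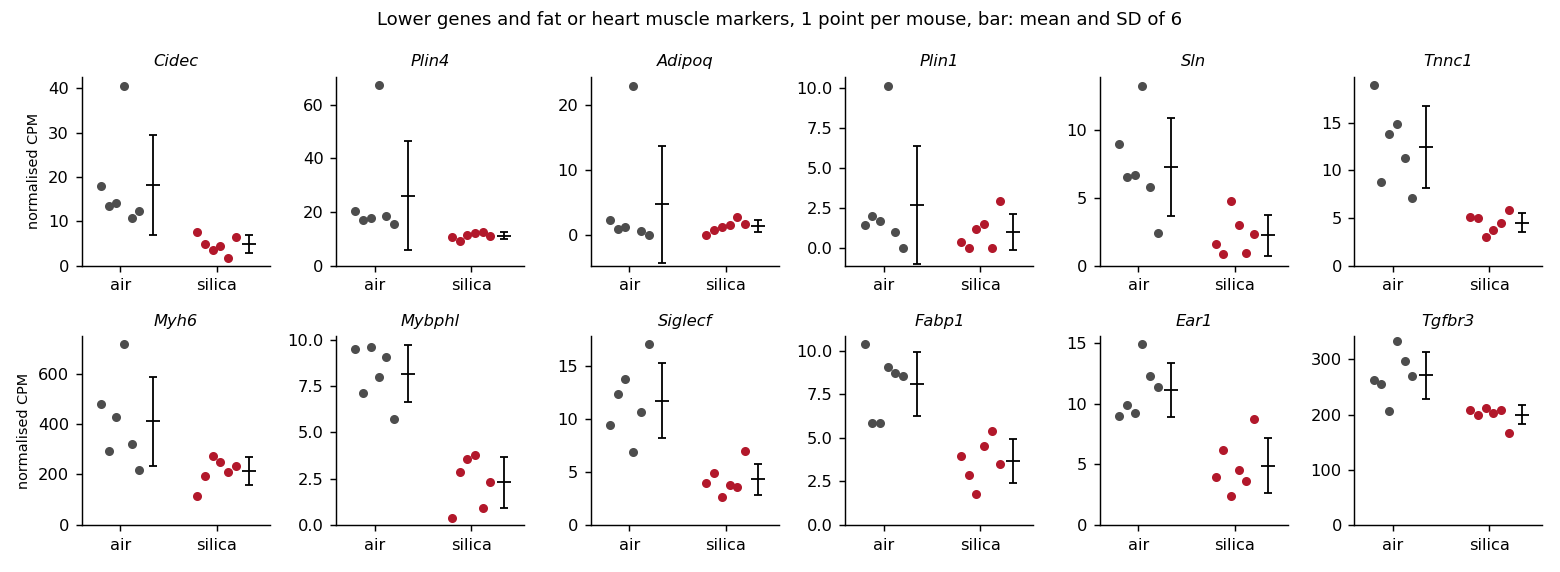
Normalised CPM on the y axis of each panel in the 6 air lungs (grey) and 6 silica lungs (red), 1 point per mouse with mean and SD, for genes called lower and for the fat markers Adipoq and Plin1 and the heart muscle marker Myh6, which were not. One air lung stands high for Cidec (40.6 CPM), Plin4 (67.3 CPM) and Adipoq (23 CPM). The groups do not overlap for Cidec, Plin4, Tnnc1, Mybphl, Fabp1 and Ear1.

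The called genes, which were chosen on these same values, describe how the mice differed. The median log2 ratio to the air mean over the 283 increases lay between 0.60 and 0.84 in the 6 silica lungs and between -0.10 and 0.11 in the 6 air lungs. Silica replicate 6 stood highest, with the top value of its group for 112 of the 283 genes. Among called genes of at least 5 CPM, the 5 increases that varied most among silica mice were Cxcl5, Saa3, Cd177, Hal and Greb1l. Hal, histidine ammonia lyase, ran from 3.33 to 8.01 CPM in air and from 3.58 to 19.4 CPM in silica lungs (1.25 ± 0.26, adjusted p = 0.00371). Greb1l ran from 1.9 to 2.93 CPM in air and from 3.01 to 10.7 CPM in silica lungs, with the lowest silica mouse only just above the air group (1.74 ± 0.33, adjusted p = 0.00137). Bcan, the brain proteoglycan brevican, was among the 3 most variable decreases: silica replicate 4 was at 0.753 CPM and the group median was 6.1 CPM. Without that lung it was not called (-0.68, adjusted p = 0.0564), and it lost the call in 8 of 33 alternatives.

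Other lists gave few or no calls. Immediate early genes (0 of 14), prostaglandin and leukotriene enzymes (0 of 9), mesothelium (0 of 4), lymphatic endothelium (0 of 5) and nerve sheath (0 of 2) had none, and neither did the single tested genes of red cells, skeletal muscle and liver. The lymphatic list still summed to less in silica lungs, 255 to 329 CPM against 331 to 481 CPM in air, without overlap. Of its 5 tested genes 1 had a positive log2 fold change, and the median was -0.17. The clock list gave 1 of 15, the repressor Bhlhe40 (0.65 ± 0.15, adjusted p = 0.0074), and the cholesterol and fatty acid list 1 of 17, squalene epoxidase Sqle (0.46 ± 0.11, adjusted p = 0.0138), at medians of -0.14 and -0.01. All markers of thyroid and thymus were too low to test. The lists together held 111 of the 374 called genes. Of the 263 outside every list, the largest increase was Ly6i, a GPI-anchored surface protein, which ran from 0 to 1.42 CPM (median 0.505) in air and from 12.2 to 23.7 CPM (median 19.5) in silica lungs (4.84 ± 0.52, adjusted p = 1.44e-07). Asgr2, a subunit of the asialoglycoprotein receptor, rose 8.86-fold (3.15 ± 0.45, adjusted p = 1.91e-05). Ly6i, Saa3, Ear1 and the H2 genes belong to families of similar copies, and how reads that match several copies were counted is not given in the sources used here, so their values are uncertain to that extent.

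The same genes were compared in 3 other sets of mice that share no library with the 12. Of the 283 increases, 255 of the 270 tested at 1 day in wildtype lungs had the same sign there, with a median log2 fold change of 0.47, and 127 were called higher, which is 44.9% of the increases of 3 months and 51.8% of those of 1 day. That comparison called 298 of 12558 genes (2.37%). At 9 months, with 5 mice in each group, 239 of 283 had the same sign at a median of 0.25, and 3 were called higher, the only calls of that comparison (3 of 12826 genes, 0.0234%): Ly6i (3.02, adjusted p = 0.00237), Vnn1 (1.38, adjusted p = 3.63e-04) and Slc39a8 (0.51, adjusted p = 0.0189). Without the lung labelled air, replicate 5, 20 genes were called at 9 months, of which 18 were among the 283 increases. In that fit 277 of 283 had the same sign and the median was 0.52. The lung stood out by its high values for these same genes, so leaving it out raises their changes by construction. Lcn2 shows that lung: it was at 56.2 to 82.1 CPM in the other 4 air lungs, at 477 CPM in replicate 5 and at 279 to 473 CPM in silica lungs of 9 months. Ctsk was at 21.4 to 29.8 CPM, 320 CPM and 120 to 186 CPM in the same order. Gpnmb was at 77.1 to 93 CPM, 722 CPM and 153 to 303 CPM, so replicate 5 lay above the silica lungs for Ctsk and Gpnmb. The 9 month change of Lcn2 was 1.20 with that lung and 2.31 without it (adjusted p = 0.0141), and that of Ctsk 0.67 and 2.38 (adjusted p = 0.042). The cause of that lung's values was not tested. In knockout lungs at 3 months, 275 of 283 had the same sign at a median of 0.63, and 193 were called higher, 68.2% of the wildtype increases and 50.5% of the knockout ones. The knockout comparison called 607 of 12647 genes (4.8%). It came from the same fit as the wildtype comparison, with a shared estimate of spread, so the shared calls are not from independent tests. Of the 91 decreases, 5 were also called lower at 1 day, 0 at 9 months and 19 in knockout lungs (20.9% of the wildtype decreases and 8.44% of the knockout ones). Without the 9 month lung labelled air, replicate 5, 1 was called lower at 9 months. The same sign was held by 78 of 90 tested at 1 day, 71 of 89 at 9 months and 73 of 91 in knockout lungs, at medians of -0.19, -0.14 and -0.16. The 9 month values among these include that lung. No gene called in the wildtype lung at 3 months was called in the opposite direction in any of the 3 comparisons.

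**Figure D5:**
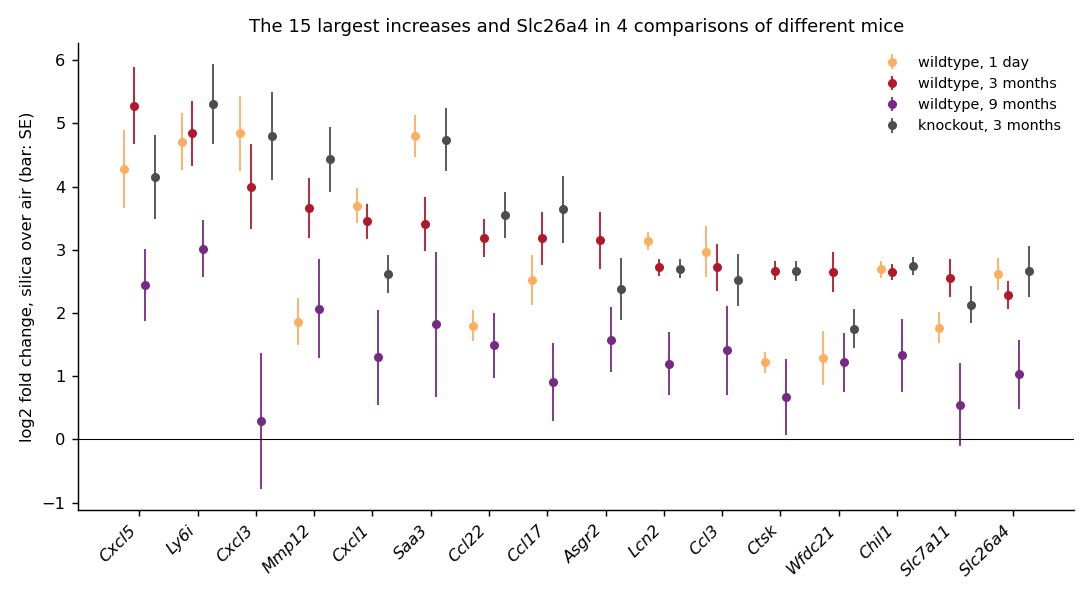
Log2 fold change of silica over air on the y axis, with SE bars, for the 15 largest increases and Slc26a4 in 4 comparisons of different mice (wildtype at each of the 3 times, knockout at 3 months); a missing point is a gene not tested there. Lcn2 and Chil1 have similar values at 1 day and 3 months, Ctsk is at 1.22 at 1 day against 2.67 at 3 months, and the 9 month points, which lie below those of 3 months, include the lung labelled air, replicate 5, whose values for all of the 15 genes were the highest of its group.

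Tests of the differences themselves called no gene. The wildtype and knockout effects of silica at 3 months differed in 0 of 12647 genes (0%), with 970 at an unadjusted p under 0.05 and a smallest adjusted p of 0.0533. DESeq2's Wald test called 4. The gene nearest to the threshold was Ndnf, a secreted neurotrophic factor, with mean levels of 194 CPM in air and 232 CPM in silica wildtype lungs and 295 and 203 CPM in knockout lungs. Israa and Col3a1 came next, and the effect on Col3a1 was 0.57 ± 0.13 higher in wildtype lungs (unadjusted p = 1.14e-04, adjusted p = 0.342). The effect at 3 months differed from that at 1 day in 0 of 13252 genes (0%), with 635 at an unadjusted p under 0.05 and 0 called by DESeq2. The spread in that fit came from all 70 libraries, the 9 month lung labelled air, replicate 5, included. Whether genes would be called without that lung was not examined for this difference. For Ctsk the SE of the difference was 0.66, against 0.15 at 3 months and 0.17 at 1 day in the fits of single times. The lack of calls is therefore no measure of how alike the 2 times were. Effects at 9 months and 3 months differed in 0 of 13252 (0%), with 772 at an unadjusted p under 0.05 and 0 called by DESeq2, and 0 were called without the 9 month lung labelled air, replicate 5.

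Several increases had other sizes at 1 day, though their differences did not pass. Ctsk was 2.67 ± 0.15 at 3 months and 1.22 at 1 day (difference unadjusted p = 0.0316, adjusted p = 1). H2-Eb1 was 0.81 at 3 months and 0.17 at 1 day, where it was not called (adjusted p = 0.459); the difference had an unadjusted p of 0.00182 and an adjusted p of 0.873. Cd74 was 0.61 and 0.23, and H2-Ab1 0.86 and 0.38. Lcn2 at 2.72 and 3.14, Chil1 at 2.65 and 2.69 and C3 at 0.94 and 0.90 were of like size at both times. Slc26a4 was 2.62 at 1 day, 1.03 at 9 months (adjusted p = 0.763) and 2.66 in knockout lungs. At 9 months its level was 6.42 to 21.6 CPM in 4 air lungs, 74.2 CPM in the lung labelled air, replicate 5, and 20.5 to 79.1 CPM in silica lungs. Without replicate 5 its 9 month change was 1.90 ± 0.55 and still not called (adjusted p = 0.2).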

How the data were processed

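Read counts per gene were used as deposited by the authors, 1 column per lung. Per the submitters' processing notes, bcl2fastq 2.19, Trimmomatic 0.35, HISAT2 2.1.0, SAMtools 1.8, HTSeq 0.11.2 and Cufflinks were used with the mouse build mm10; per the labels' protocols, libraries were ribosome-depleted, stranded total RNA. The gene annotation and the strand setting of the counting are not given in the sources used here, so overlapping and antisense genes could share reads. Of 24439 rows, 19 that repeat a gene with identical counts were dropped.

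Genes were tested with edgeR 4.0.16 in R 4.3.3 (filterByExpr, TMM, quasi-likelihood F test, 1 mean per group over the 24 libraries of 3 months, Benjamini-Hochberg adjustment over all tested genes, call at adjusted p under 0.05). The standard error is the log2 fold change divided by the root of F. Differences between times used all 70 libraries. Alternatives used DESeq2 1.42.0, limma 3.58.1 and sva 3.50.0. Named genes were Slc26a4, the 15 largest increases and 10 largest decreases at a mean of at least 1 CPM, the smallest p-values, up to 4 called members per list (or 2 with the smallest p), the most variable called genes of at least 5 CPM and the 3 smallest p of each difference test; further list members and genes outside the lists were named after seeing their values. The comparison, the 50 lists and the rules were chosen with earlier results of these data known. Library sizes are totals of the genes that passed the filter, chosen after the count of calls under totals of all genes had also been seen. P-values set the difference between groups against a spread between mice estimated over the libraries of the fit, knockouts included in the main fits. Depth differs between libraries.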

Additional observations from a re-analysis of the deposited data

Results flagged for a closer look

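Among the 102 called genes named by rule, 204 groups of 6 mice were screened for 1 mouse far from the other 5 (a gap above 0.625 of the group's range), and 20 stood out. Chance flags about 1 in 20 groups. Values are normalised CPM.

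In 4 of the 20, silica replicate 6 was highest: Saa3 at 44.1, H2-Ab1 at 509, Tnfaip2 at 75.4 and Cfb at 145. It was lowest for Tgfbr3, at 166. Leaving that mouse out kept Saa3 called, at a log2 fold change of 2.97. Among the other silica mice, Chil1 was highest in replicate 3 at 543, Ctla4 in replicate 5 at 8.96, and Bcan at 0.753 and Txnrd1 at 78.3 were lowest in replicate 4.

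Air replicate 4 was highest for Cidec at 40.6, Plin4 at 67.3, Ppp1r1b at 11.7 and C3 at 1090, and lowest for Lcn2 at 42.7. Air replicate 3 was highest for H2-K1 at 409, Tnfrsf11a at 11.7 and Acp5 at 14.2. Air replicate 5 was highest for Il1rl1 at 7.13 and lowest for Top2a at 7.78, and air replicate 1 was lowest for Ctsk at 8.06.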

How the results depend on the processing

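The 374 calls became 573 with limma voom and quality weights (all 374 among them), 190 with all 70 libraries (182 shared) and 575 without knockout silica replicate 3. Leaving out 1 of the 24 libraries gave 267 to 575. DESeq2's size factors, DESeq2's own test, no filter, a filter at a mean of 1 CPM, 1 surrogate variable, the 12 wildtype libraries alone, and library totals over all genes (373, chosen after seeing the data) kept the count within 1.5 times. Of 155 named called genes, 89 kept their call in every alternative that tested them, 66 lost it in 1 or more, and 0 changed sign. Among the 66, C1qa, Cd68, Ctsz, B2m, Iigp1, Cyba, Bhlhe40, Sod2, Lamp3, Vldlr, Col12a1 and Tnfaip2 lost it only in the fit of all 70 libraries. The genotype difference called 1 gene with DESeq2's size factors, 4 with DESeq2's test, 1 with no filter, 1 with a surrogate variable and 1 without knockout silica replicate 3. The difference between 3 months and 1 day called 1 gene with limma voom, and leaving out 1 wildtype library of those times gave 0 to 0. For 9 months against 3 months, leaving out 1 library gave 0 to 0. The 3 calls of the 9 month comparison became 2 to 20 when 1 wildtype library was left out, 20 without the lung labelled air, replicate 5, and 2 to 4 without any other (chosen after seeing the data). No paired analysis was possible because the labels give no replicate numbers that groups share. Shallow libraries limit genes of a few CPM: Cxcl5 had 0 to 3 reads in air libraries.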
